A study of Mus musculus with 13 samples.

Results

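A list of 34 genes of glucose uptake, glycolysis, lactate and pyruvate handling and glycogen metabolism was followed in mouse heart. They were given as gene symbols. Probes were matched to the list by the current or older symbol in the platform annotation, and a gene was kept where a probe had a detection p under 0.05 on at least 3 arrays. Of the 34 genes, 30 had a named probe and 29 were tested, among 10410 genes in all. The lactate transporter gene Slc16a1 had 1 probe, which was detected on 0 arrays, and Hk2, Gpi1, Pfkfb1 and Eno1 were not analysed here. The list had 53 probes, of which 41 passed the detection rule.

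Hearts came from 13 male C57BL/6 mice aged 8 to 10 weeks, with no genetic modification given in the labels. Control mice (n = 5) received PBS, and another 5 received doxorubicin, an anthracycline chemotherapy drug that is toxic to the heart. The remaining 3 mice, called pretreated here, were given sAcvR2B-Fc first and doxorubicin 48 hours later. This activin receptor ectodomain, fused to an antibody Fc part, binds activins, myostatin and related ligands. All injections were intraperitoneal, and the mice were killed 20 hours after receiving doxorubicin or PBS. No group received sAcvR2B-Fc without doxorubicin in the labels, so its own effect cannot be told apart from its effect together with doxorubicin. Each array was taken as 1 mouse, as the labels do not say more about the source of each sample. Total RNA was measured, so fewer cells of a type and less RNA per cell cannot be told apart.

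The adult heart draws most of its energy from fatty acids and takes up glucose as a second fuel. Glucose enters cardiomyocytes through GLUT4, which insulin and contraction move to the cell surface, and through GLUT1, which is always present there. Hexokinase traps it as a phosphate, after which it is stored as glycogen or broken down by glycolysis to pyruvate. Pyruvate is reduced to lactate or enters the mitochondrion, where pyruvate dehydrogenase commits it to oxidation and pyruvate dehydrogenase kinases switch that enzyme off.

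Signals were background-corrected, quantile-normalized and put on a log2 scale, and levels below are these log2 signals of the brightest passing probe of each gene. Differences are log2 differences ± SE from 1 limma fit over the 3 groups, and a gene was called at a Benjamini-Hochberg adjusted p under 0.05 over all 10410 genes. Markers of the labelled tissue were present: 7 of 8 cardiomyocyte markers passed the detection rule, with mean levels per array of 13.44 to 13.97, while 0 of the 6 adipocyte markers with a probe passed. Detected probes numbered 15989 to 17939 per array. The deposited tables name different arrays for 8 of the 13 samples, and for 6 of these the array belongs to another group. The names of the non-normalized table were used. Which names are right is unsettled, and differences under the series matrix names are given beside the members and other genes described most closely. A set of 5 arrays (control replicates 4 and 5, doxorubicin replicate 5, pretreated replicates 2 and 3) lay at 14.95 to 23.18 on the first principal component of all genes, which held 28.93% of the variance, against -18.42 to 0.09 for the other 8 arrays. On the second component doxorubicin replicate 2 lay at 8.77, near the controls (10.24 to 16.12) and away from the other doxorubicin arrays (-22.82 to -2.19).

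Promoter sequences of 3 members are shown: Slc2a1 and Ldha, textbook targets of the hypoxia-inducible factors, and Pdk2, which had the largest positive difference between pretreated and doxorubicin hearts. They run from 250 bases before to 50 bases after the annotated start, 5′ to 3′ on the gene's strand, from RefSeq on build GRCm38.p6. Capitals mark every match to ACGTG, the core letters of the hypoxia response element, or to its reverse complement. The E-box CACGTG holds that core on both strands, so each E-box counts as 2 matches.
Slc2a1 (chr4:119108495-119108794, plus strand): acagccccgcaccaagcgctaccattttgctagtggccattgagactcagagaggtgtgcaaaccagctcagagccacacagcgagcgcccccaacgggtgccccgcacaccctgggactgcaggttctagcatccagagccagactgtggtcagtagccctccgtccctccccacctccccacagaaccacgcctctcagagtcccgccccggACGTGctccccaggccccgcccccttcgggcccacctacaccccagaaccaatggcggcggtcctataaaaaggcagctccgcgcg
Pdk2 (chr11:95041322-95041621, minus strand): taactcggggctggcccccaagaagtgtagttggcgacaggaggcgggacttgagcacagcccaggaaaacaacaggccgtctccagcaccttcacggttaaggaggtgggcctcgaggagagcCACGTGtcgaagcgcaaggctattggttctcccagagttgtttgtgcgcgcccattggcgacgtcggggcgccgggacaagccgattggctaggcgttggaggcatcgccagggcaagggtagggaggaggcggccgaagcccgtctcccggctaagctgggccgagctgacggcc
Ldha (chr7:46845554-46845853, plus strand): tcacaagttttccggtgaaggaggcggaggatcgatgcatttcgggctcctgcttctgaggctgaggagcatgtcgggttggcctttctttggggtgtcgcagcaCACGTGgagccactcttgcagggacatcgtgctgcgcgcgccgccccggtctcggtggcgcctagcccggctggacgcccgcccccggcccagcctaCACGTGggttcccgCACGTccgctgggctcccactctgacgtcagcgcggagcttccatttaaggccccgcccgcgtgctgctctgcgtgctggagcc
The Slc2a1 window held 1 match at position -36 from the start, Pdk2 held 1 E-box from position -126, and Ldha held 5 matches that included 2 E-boxes. Promoters in the RefSeq table were matched by symbol for 28 of the 29 tested members, all but Slc2a4. ACGTG on either strand was found in at least 1 promoter of 16 of these 28 genes (57.1%), against 29.4% of 8423 tested genes and 21.8% of all 27025 genes in the table. CACGTG was found in 6 of the 28 (21.4%), against 12% of the tested genes and 8.09% of all genes. Of all 32851 promoters taken singly, 19.6% held ACGTG and 7.15% held CACGTG. A gene with several promoters counted if any of them matched, and the number of promoters per gene was not compared. These counts describe letters in the windows and not binding.

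No member passed the test over all genes in any of the 3 comparisons. After doxorubicin alone, limma called 0 of 29 members, against 0.240% of all genes tested, and 1 member, the insulin-responsive transporter gene Slc2a4, had an unadjusted p under 0.05, against 12.2% of all genes. In pretreated against doxorubicin mice 0 of 29 were called, against 0.0865% of all genes, and 3 members (Pdk2, Slc2a1 and Pfkl) had an unadjusted p under 0.05 (10.34% of members and 11.3% of all genes). In pretreated mice against controls 0 of 29 were called, against 1.23%, and again 3 members (Gapdh, Pdk2 and Aldoa) had an unadjusted p under 0.05 (10.34% against 18.3%). With the names used here, the shares at an unadjusted p were below those of all genes in each comparison. Under the series matrix names limma also called 0 members in each comparison, with 1, 0 and 1 members at an unadjusted p under 0.05, or 3.45%, 0% and 3.45% against 1.58%, 3.11% and 3.44% of all genes. With those names the difference was smaller in size for 21, 16 and 20 of the 29 members and had the other sign for 9, 11 and 14.

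Differences of the members were small. Their median was 0.02 for doxorubicin minus control (15 positive, 14 negative), 0.06 for pretreated minus doxorubicin (18 positive, 11 negative) and 0.08 for pretreated minus control (18 positive, 11 negative). Over all genes the medians were -0.0043, 0.0179 and 0.0009. The 95% interval of the difference lay within 1.5-fold in either direction for 24 of the 29 members after doxorubicin, for 19 between the treated groups and for 20 in pretreated mice against controls. Within 2-fold it lay for 27, 26 and 26 members. Of all 10410 genes, 8080, 6952 and 6500 had an interval within 1.5-fold, and 9987, 9724 and 9552 within 2-fold. With median scaling in place of quantile normalization the median of all genes moved to 0.13, 0.02 and 0.13, and that of the members to 0.12, 0.05 and 0.19. Signs of small differences therefore depend on the scaling, and under median scaling 21, 17 and 23 of the 29 members were positive.

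**Figure D1:**
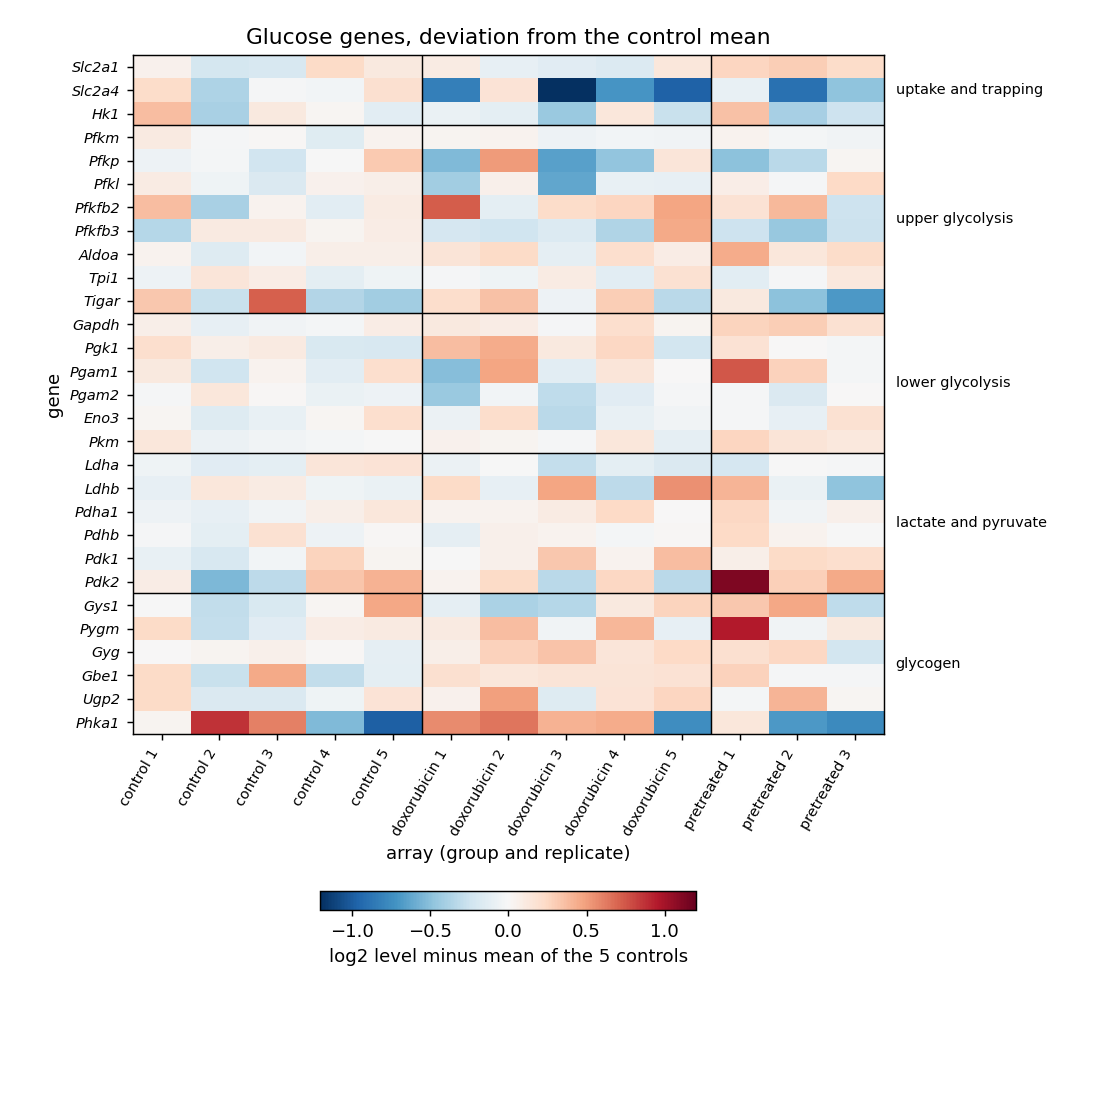
Log2 level of the 29 tested members (rows, grouped by role) on each of the 13 arrays (columns), as the difference from the mean of the 5 control arrays; red is above and blue is below that mean. Slc2a4 is blue on 4 of the 5 doxorubicin arrays. The Phka1 row is blue on control replicates 4 and 5, doxorubicin replicate 5 and pretreated replicates 2 and 3.

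**Figure D2:**
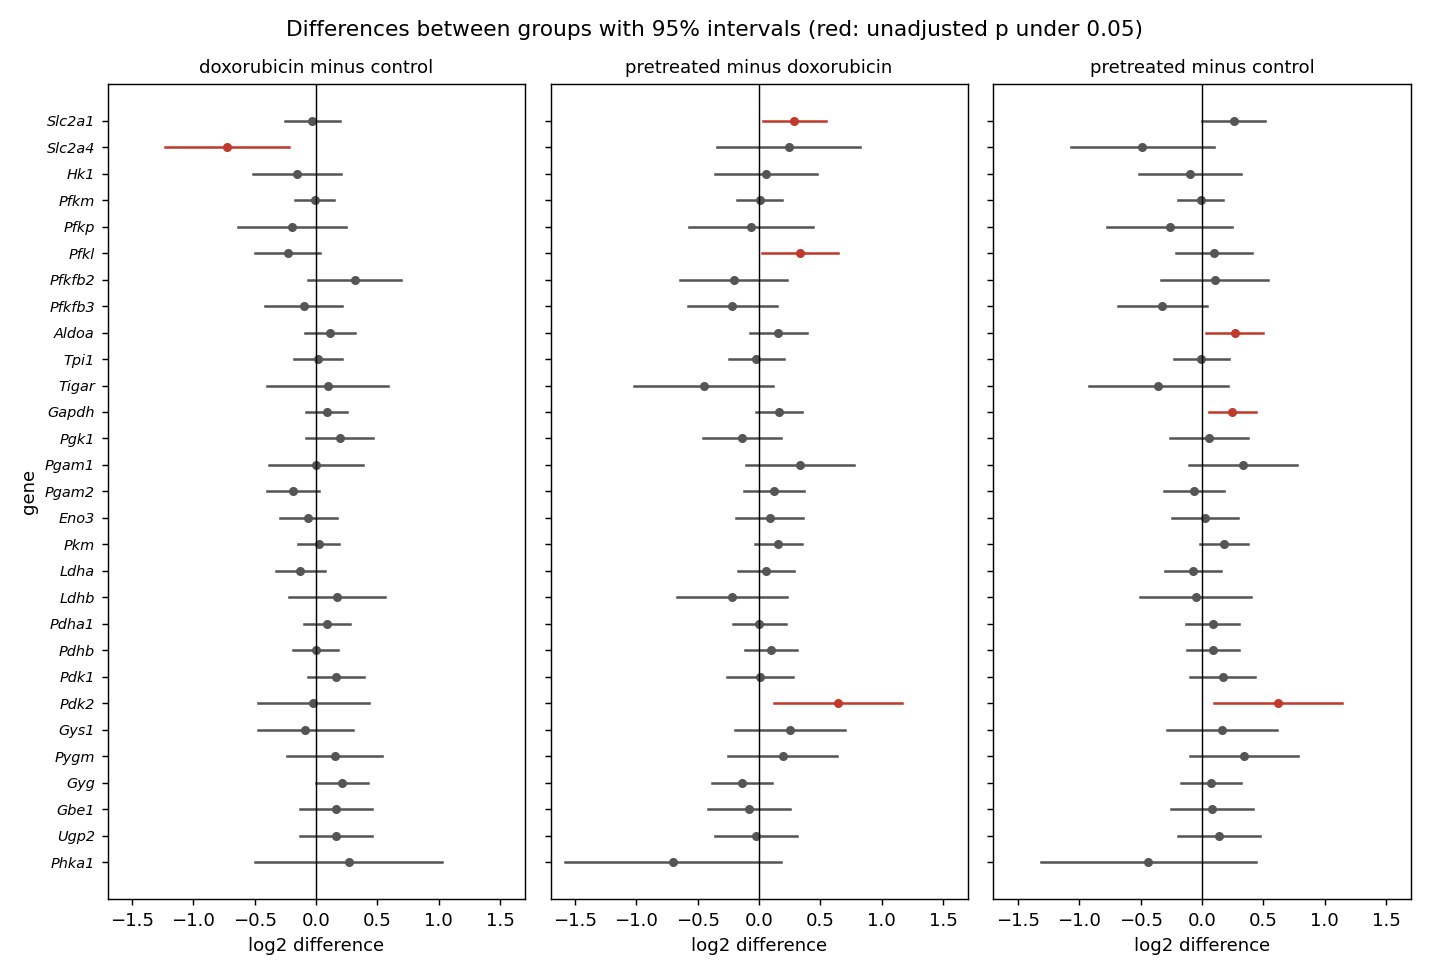
Log2 difference of each member in the 3 comparisons (points) with its 95% interval from the limma fit (lines); the vertical line is 0 and red marks an unadjusted p under 0.05. Slc2a4 is the 1 red gene after doxorubicin, at -0.73, and Pdk2 is red in both comparisons of the pretreated mice, at 0.64 and 0.62.

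The transport step held the member farthest from control after doxorubicin. Slc2a4 encodes GLUT4, the transporter that insulin moves to the surface of muscle cells. Its level was 10.49, 9.90, 10.25, 10.24 and 10.46 in the 5 controls and 9.45, 10.44, 8.96, 9.56 and 9.30 in the 5 doxorubicin hearts. It was 10.18, 9.37 and 9.79 in the 3 pretreated hearts. Doxorubicin replicates 1, 3, 4 and 5 lay below every control, while doxorubicin replicate 2 lay among the controls, so the groups overlapped. The difference was -0.73 ± 0.23 on the log2 scale, a level 1.66-fold lower (limma adjusted p = 0.215, n = 5 and 5). Pretreated hearts overlapped both groups, at -0.49 ± 0.27 from control (adjusted p = 0.362) and 0.24 ± 0.27 from doxorubicin (adjusted p = 0.751).

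The Slc2a4 call depended on 1 array. Without doxorubicin replicate 2 the difference was -0.95 ± 0.18 and was called (limma adjusted p = 0.0149), the 1 fit of 26 alternatives in which a member was called. That fit called 332 genes, so the 1 member (3.45%) stood beside 3.19% of all genes. In that fit 4 more members had an unadjusted p under 0.05: Pfkfb2 at 0.42, Pfkl at -0.31, Pfkp at -0.38 and Pgam2 at -0.23, none of them called. The 5 members are 17.2% of the list, against 16.6% of all genes in the same fit. Leaving out any other array gave -0.58 or below for Slc2a4. On the 7 arrays with 1 group in either table it was -0.67 ± 0.36 (limma adjusted p = 0.716). Under the series matrix names the difference was -0.18 ± 0.31 (limma adjusted p = 1), with controls at 9.37 to 10.49 and doxorubicin hearts at 8.96 to 10.44.

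Cell type markers also differed between these arrays. Of 5 erythroid markers, 3 had a probe and passed. Their mean level per array was 8.96 to 9.58 in controls, 8.11 to 9.67 after doxorubicin and 8.10 to 8.85 in pretreated hearts. The haemoglobin gene Hba-a1 stood at 14.16 on doxorubicin replicate 2 and at 12.88 to 13.39 on the other doxorubicin arrays, against 13.67 to 14.25 in controls. Of 4 neutrophil markers that passed, 2 were called after doxorubicin, with a mean level of 4.70 to 5.36 in controls and 6.25 to 7.26 after doxorubicin. Doxorubicin replicate 2 was also the highest doxorubicin array for Acta1 (14.10, others 11.99 to 12.83), a skeletal muscle actin gene that stressed hearts express too, for the atrial peptide gene Nppa (14.25, others 13.05 to 13.37) and for the fibroblast collagen gene Col1a1 (9.82, others 9.10 to 9.19). Of the same lists, the skeletal muscle gene Ckm, the atrial gene Myl4 and the fibroblast gene Col1a2 were also highest on that array. The fibroblast gene Dcn (13.44) and the skeletal muscle gene Mylpf (4.79, a dim signal) were instead lowest there among the doxorubicin arrays. The fibroblast gene Pdgfra and the skeletal muscle genes Tnni2 and Atp2a1 were neither. Cardiomyocyte markers stood at 13.58 to 13.97 in controls and 13.52 to 13.93 after doxorubicin, with 0 called. Among the doxorubicin arrays, Myh6 and Ryr2 were lowest on replicate 2 and Myl3 tied for lowest. Actc1, Tnni3, Myl2 and Pln were neither. The macrophage genes Csf1r, Adgre1 and Cd14, the smooth muscle gene Acta2 and the endothelial gene Tie1 were highest there. Myh11, Tagln, Pecam1 and Cdh5 were neither. The neutrophil genes S100a8 (6.66) and S100a9 (6.90) were lowest there but above every control (at most 5.37 and 5.18), and Retnlg and Lcn2 were neither. The part of these markers in the Slc2a4 difference was not tested.

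Slc2a1 encodes GLUT1, the transporter of basal uptake. It stood at 8.87, 8.60, 8.62, 9.05 and 8.93 in controls and at 8.92, 8.72, 8.68, 8.66 and 8.95 after doxorubicin, and these groups lay within the same range (-0.03 ± 0.10, limma adjusted p = 0.94). In the pretreated hearts it was 9.07, 9.11 and 9.04. All 3 lay above every doxorubicin heart, by 0.29 ± 0.12 (limma adjusted p = 0.411), and 1 control lay among them (0.26 ± 0.12 from control, adjusted p = 0.275). Under the series matrix names these 2 differences were 0.0027 ± 0.15 and 0.05 ± 0.15. Hk1, the hexokinase isoform spread over most tissues, ranged from 6.84 to 7.60 in controls, 6.79 to 7.36 after doxorubicin and 6.83 to 7.58 in pretreated hearts, with differences of -0.15 ± 0.17, 0.06 ± 0.19 and -0.10 ± 0.19 in the order of comparisons above. Its groups overlapped, and under the series matrix names the differences were -0.09 ± 0.17, 0.24 ± 0.19 and 0.15 ± 0.19. The other passing Hk1 probe, detected on 7 arrays, gave -0.16, 0.23 and 0.08 with the names used.

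**Figure D3:**
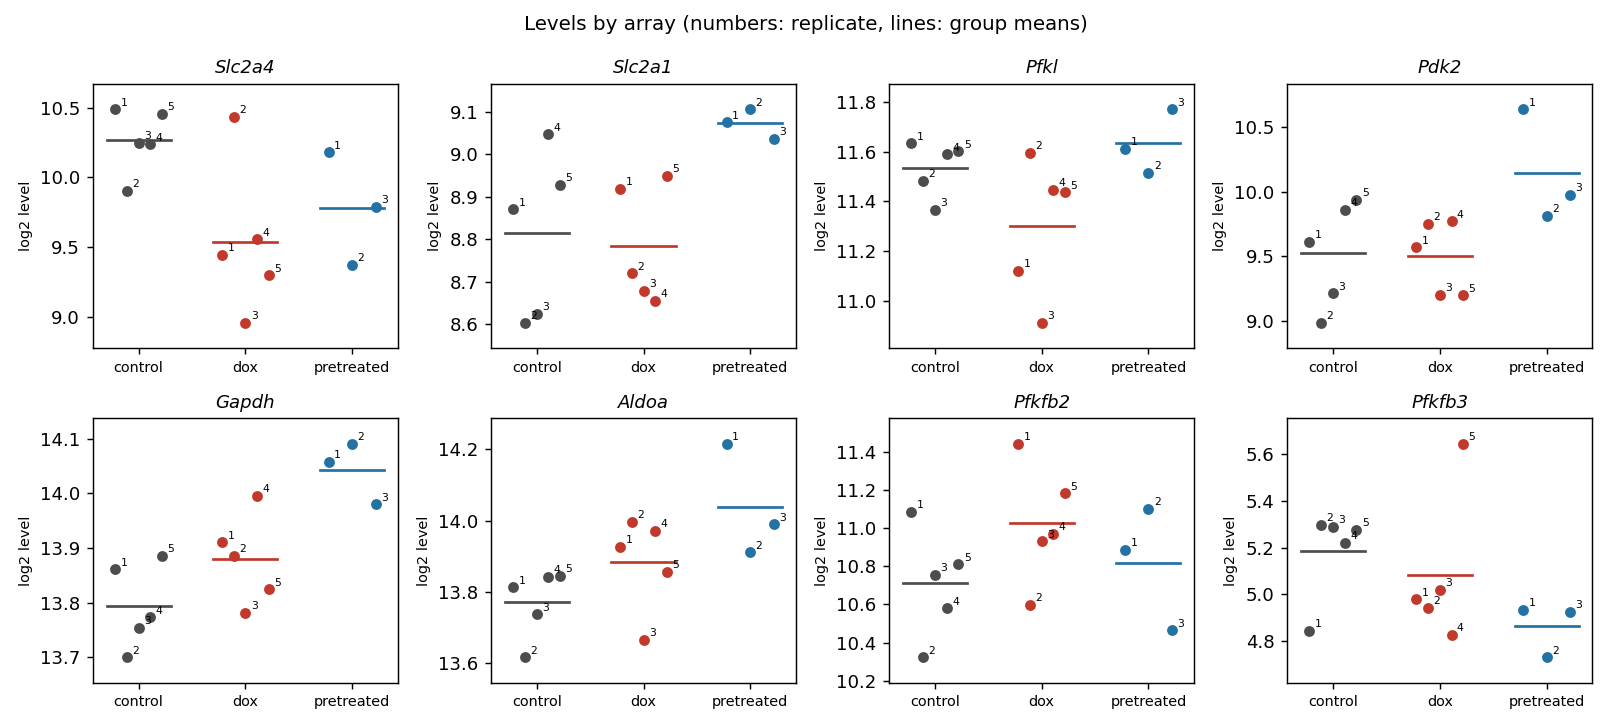
Log2 level of 8 members on each array, with the replicate number beside each point and group means as lines; the vertical axes differ between panels and do not start at 0. Doxorubicin replicate 2 stands among the controls for Slc2a4, the 3 pretreated hearts stand above the controls for Gapdh and Aldoa, and pretreated replicate 1 stands highest for Pdk2.

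The upper part of glycolysis (8 tested members) had a median difference of 0.0021 after doxorubicin, with 4 positive and 4 negative. The 3 phosphofructokinase genes encode the subunits of the enzyme at the committed step. Pfkm, the muscle subunit, was 13.67 to 13.92 in controls, 13.75 to 13.85 after doxorubicin and 13.77 to 13.85 in pretreated hearts, and its difference after doxorubicin was -0.01 ± 0.07, with the 95% interval within 1.5-fold. Its other 2 passing probes gave -0.14 and -0.33 after doxorubicin and 0.20 and 0.44 for pretreated minus doxorubicin, where the probe used gave 0.0048 ± 0.09. Pfkl, the liver subunit, was 11.63, 11.48, 11.36, 11.59 and 11.60 in controls and 11.12, 11.60, 10.91, 11.45 and 11.44 after doxorubicin. In pretreated hearts it was 11.61, 11.52 and 11.77. Doxorubicin replicates 1 and 3 lay below all controls, and the groups overlapped (-0.23 ± 0.12, limma adjusted p = 0.473). Pretreated hearts stood 0.33 ± 0.14 above doxorubicin hearts (limma adjusted p = 0.424) and 0.10 ± 0.14 from control. With the series matrix names the 3 differences were -0.14 ± 0.15, 0.07 ± 0.17 and -0.06 ± 0.17, the last with the other sign. The other passing Pfkl probe, ILMN_2871325, gave -0.07, -0.05 and -0.13 in the 3 comparisons, so the probes differed in sign for pretreated against doxorubicin hearts. Pfkp, the platelet subunit, had differences of -0.20 ± 0.20, -0.06 ± 0.24 and -0.26 ± 0.24.

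Pfkfb2 and Pfkfb3 encode bifunctional enzymes that make and remove the sugar bisphosphate activating phosphofructokinase, Pfkfb2 being the heart isoform. Pfkfb2 was 11.09, 10.32, 10.76, 10.58 and 10.81 in controls, 11.44, 10.60, 10.93, 10.97 and 11.18 after doxorubicin and 10.89, 11.10 and 10.46 in pretreated hearts. Its groups overlapped (0.31 ± 0.18 after doxorubicin, limma adjusted p = 0.497), and its other passing probe gave 0.05. With the series matrix names the difference was -0.06 ± 0.20, of the other sign. Detection of Pfkfb3 reached 4 of 5 arrays in controls, 1 of 5 after doxorubicin and 0 of 3 with pretreatment, so its pretreated level is only a bound. Its signals were 4.84, 5.30, 5.29, 5.22 and 5.28 in controls, 4.98, 4.94, 5.02, 4.83 and 5.64 after doxorubicin and 4.93, 4.73 and 4.93 in pretreated hearts. Doxorubicin replicate 5 was its highest array and the other 4 doxorubicin arrays lay below 4 of the controls, with a fitted difference of -0.10 ± 0.15 (limma adjusted p = 0.832) and 0.02 ± 0.15 under the series matrix names. Tigar, a phosphatase gene induced by p53 that lowers the same activator, had differences of 0.09 ± 0.23, -0.45 ± 0.26 and -0.35 ± 0.26. Under the series matrix names they were 0.0043 ± 0.24, 0.27 ± 0.28 and 0.28 ± 0.28, the last 2 with the other sign. Its level was 5.61 to 5.97 on the arrays set apart on the first principal component and 6.02 to 7.01 on the others.

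Aldoa, the aldolase of muscle, was 13.81, 13.62, 13.74, 13.84 and 13.85 in controls and 13.93, 14.00, 13.66, 13.97 and 13.86 after doxorubicin (0.11 ± 0.09, limma adjusted p = 0.678). In pretreated hearts it was 14.21, 13.91 and 13.99, with all 3 above every control (0.27 ± 0.11, limma adjusted p = 0.206). By the series matrix names these groups overlapped, with controls at 13.62 to 13.97 and pretreated hearts at 13.74 to 14.21, a difference of 0.105 ± 0.13. Members whose groups did not overlap in that comparison numbered 2 of 29 (Aldoa and Gapdh), or 6.90%, against 13.9% of all genes. Tpi1, the triose phosphate isomerase gene, stood at 0.02 ± 0.09, -0.02 ± 0.10 and -0.01 ± 0.10, with groups in the same range. The other passing Tpi1 probe gave 0.16, -0.17 and -0.01.

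The lower part of glycolysis (6 tested members) had 5 of 6 positive differences in each comparison of the pretreated hearts, with medians of 0.14 against doxorubicin and 0.12 against control, and 3 of 6 positive after doxorubicin. Gapdh encodes the dehydrogenase that makes NADH in glycolysis. It was 13.86, 13.70, 13.75, 13.77 and 13.89 in controls, 13.91, 13.89, 13.78, 14.00 and 13.82 after doxorubicin and 14.06, 14.09 and 13.98 in pretreated hearts. All pretreated hearts lay above all controls (0.25 ± 0.09, a level 1.19-fold higher, limma adjusted p = 0.157), the lowest p of any member in that comparison. They overlapped the doxorubicin hearts (0.16 ± 0.09, limma adjusted p = 0.498), and Gapdh stood at 0.08 ± 0.08 after doxorubicin. Under the series matrix names its difference for pretreated minus control was -0.03 ± 0.11 (limma adjusted p = 1).

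Pkm, the pyruvate kinase gene that ends glycolysis, was 13.30, 13.09, 13.12, 13.14 and 13.16 in controls, 13.22, 13.19, 13.15, 13.30 and 13.05 after doxorubicin and 13.42, 13.32 and 13.29 in pretreated hearts. Control replicate 1 lay among the pretreated hearts (0.18 ± 0.09 from control, limma adjusted p = 0.313, and -0.04 ± 0.11 under the series matrix names). Pgam2, the muscle phosphoglycerate mutase, was 13.44, 13.60, 13.48, 13.39 and 13.40 in controls, 13.02, 13.43, 13.16, 13.33 and 13.45 after doxorubicin and 13.44, 13.29 and 13.47 in pretreated hearts. Its groups overlapped (-0.19 ± 0.10 after doxorubicin, limma adjusted p = 0.466, and -0.12 ± 0.11 under the series matrix names). Pgk1, the first ATP-making step, gave 0.19 ± 0.13, -0.14 ± 0.15 and 0.05 ± 0.15. Pgam1, the mutase of most other tissues, gave -0.00 ± 0.18, 0.34 ± 0.21 and 0.33 ± 0.21, and its second passing probe differed in sign, at 0.09, -0.36 and -0.27. Eno3, the muscle enolase, gave -0.06 ± 0.11, 0.09 ± 0.13 and 0.02 ± 0.13, with groups in the same range.

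Around pyruvate, Pdk2 had the largest positive differences of all members. It encodes a kinase that inhibits pyruvate dehydrogenase and so spares pyruvate from oxidation. It stood at 9.61, 8.99, 9.21, 9.86 and 9.94 in controls and at 9.57, 9.75, 9.20, 9.77 and 9.20 after doxorubicin, with these groups in the same range (-0.02 ± 0.21, limma adjusted p = 0.981). In pretreated hearts it was 10.64, 9.81 and 9.98. All 3 lay above all doxorubicin hearts, the lowest by a small margin, and replicate 1 stood apart from the other 2. The difference was 0.64 ± 0.24, or 1.56-fold, against doxorubicin (limma adjusted p = 0.387) and 0.62 ± 0.24 against control (adjusted p = 0.196). Without pretreated replicate 1 the difference from doxorubicin was 0.40, and under the series matrix names it was 0.01 ± 0.31. Pdk2 and Slc2a1 were the 2 members (6.90%) whose pretreated and doxorubicin arrays did not overlap, against 6.98% of all genes.

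Pdk1, a second kinase of the same enzyme, was 8.20, 8.09, 8.25, 8.55 and 8.32 in controls, 8.28, 8.35, 8.61, 8.33 and 8.65 after doxorubicin and 8.35, 8.52 and 8.49 in pretreated hearts. These groups overlapped, with 0.16 ± 0.11 after doxorubicin under either set of names (limma adjusted p = 0.591 with the names used). Pdha1 and Pdhb, the subunits of the decarboxylating part of pyruvate dehydrogenase, lay within 0.10 of 0 in every comparison by the probes used, with SEs of 0.09 to 0.10. The other 2 passing Pdhb probes gave -0.32, 0.15 and -0.17, and 0.16, -0.55 and -0.39. Ldha, the lactate dehydrogenase subunit of fast muscle, was 13.16, 13.08, 13.10, 13.36 and 13.38 in controls, 13.15, 13.21, 12.93, 13.10 and 13.04 after doxorubicin and 13.02, 13.21 and 13.20 in pretreated hearts. Its groups overlapped (-0.13 ± 0.09 after doxorubicin, limma adjusted p = 0.62, and -0.02 ± 0.10 under the series matrix names). Ldhb, the heart subunit, gave 0.17 ± 0.18, -0.22 ± 0.21 and -0.05 ± 0.21. Its 1 probe read low, at 5.83 to 6.86 over all arrays, against 12.93 to 13.38 for Ldha.

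Of the 6 tested glycogen members, 5 had a positive difference after doxorubicin, with a median of 0.16, the largest median of the 5 roles in that comparison. Gyg, glycogenin, primes new glycogen chains. It was 9.85, 9.88, 9.91, 9.86 and 9.74 in controls and 9.91, 10.12, 10.18, 9.99 and 10.08 after doxorubicin. It was the 1 member (3.45%) whose doxorubicin and control arrays did not overlap, by a margin that does not show in 2 decimals, against 2.85% of all genes (0.21 ± 0.10, limma adjusted p = 0.41). In pretreated hearts it was 10.04, 10.10 and 9.62, which spanned both groups. By the series matrix names its difference after doxorubicin was 0.03 ± 0.12. The other passing Gyg probe, ILMN_2686069, gave 0.29 ± 0.28, -0.50 ± 0.32 and -0.21 ± 0.32 in the 3 comparisons. By that probe the doxorubicin and control arrays overlapped. Gys1, muscle glycogen synthase, gave -0.09 ± 0.18, 0.25 ± 0.21 and 0.16 ± 0.21 and was detected on 3, 3 and 2 arrays of the groups. The other passing Gys1 probe gave -0.08, 0.42 and 0.34. Pygm, the muscle phosphorylase that releases glucose units, gave 0.15 ± 0.18, 0.19 ± 0.21 and 0.34 ± 0.21, with pretreated replicate 1 highest of all arrays at 11.57.

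Ugp2, which makes the activated glucose for glycogen, gave 0.16 ± 0.14, -0.03 ± 0.16 and 0.14 ± 0.16. Gbe1, the branching enzyme, was detected on 2, 4 and 1 arrays of the groups and gave 0.16 ± 0.14, -0.08 ± 0.16 and 0.08 ± 0.16. Phka1 encodes the muscle regulatory subunit of phosphorylase kinase. It was 6.50, 7.34, 7.07, 5.94 and 5.49 in controls, 7.04, 7.12, 6.89, 6.91 and 5.73 after doxorubicin and 6.61, 5.79 and 5.71 in pretreated hearts. It had the largest SEs of the members, and its low arrays were the same 5 that stood apart on the first principal component. Its group differences were 0.27 ± 0.35, -0.70 ± 0.41 and -0.44 ± 0.41. By the series matrix names they were 0.13 ± 0.39, -0.07 ± 0.45 and 0.06 ± 0.45. With those 5 arrays as a block they were 0.03 ± 0.15, -0.16 ± 0.18 and -0.13 ± 0.17.

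Member probes were then set against this array set. Of the 41 passing probes, 7 did not overlap between the 5 arrays and the other 8. This is a larger share than the 1158 of 15876 named passing probes (7.29%). Phka1 stood at 5.49 to 5.94 on the 5 arrays and 6.50 to 7.34 on the other 8. The Gyg probe ILMN_2686069 stood at 9.25 to 9.38 against 10.12 to 10.41, while the Gyg probe used above was not split. The Pdhb probe ILMN_3116570 stood at 8.61 to 9.01 against 10.17 to 10.44, and the Pdhb probe used above was not split either. Probes of one gene thus differed in whether they followed these arrays. Tigar, Pgk1 and the second Pgam1 probe were also lower on the 5 arrays, and the Pfkm probe ILMN_1252214 was higher, at 8.51 to 8.95 against 7.70 to 8.29. The set was found from the data and holds arrays of all 3 groups. With it as a block, limma called 0 members in each comparison, with 2, 2 and 5 at an unadjusted p under 0.05 (6.9%, 6.9% and 17.2%, against 14%, 9.23% and 19.9% of all genes).

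**Figure D4:**
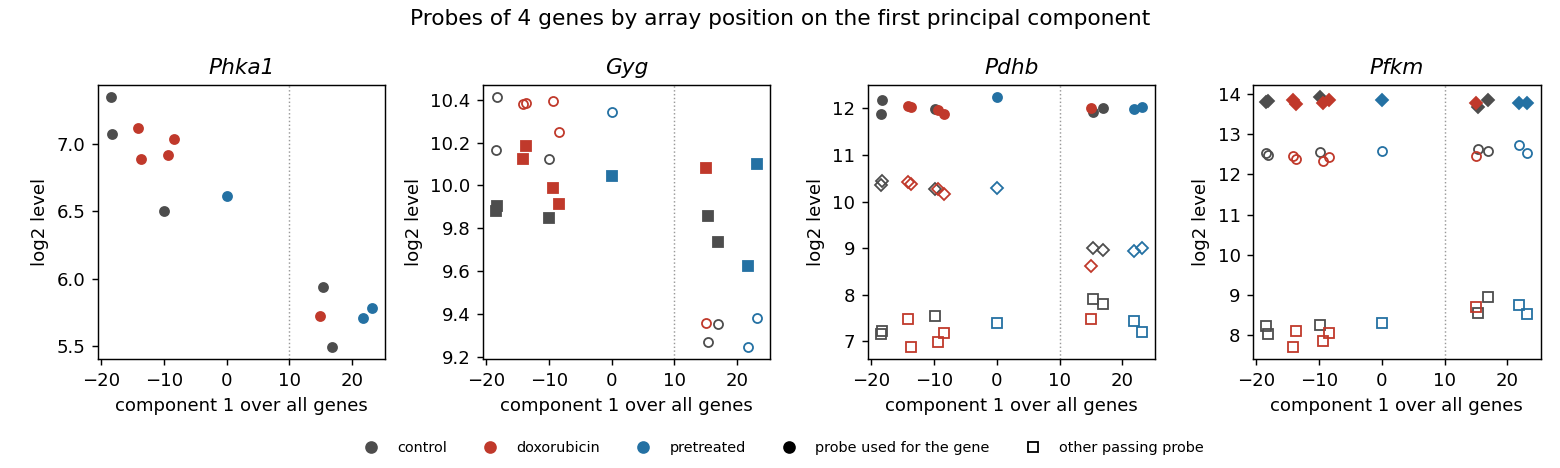
Log2 level of every passing probe of Phka1, Gyg, Pdhb and Pfkm on each array, against the array's position on the first principal component over all genes; colours are groups, filled points the probe used for the gene, open points other probes, and marker shapes separate probes. The 5 arrays right of the dotted line at 10 lie lower for Phka1 and for 1 probe each of Gyg and Pdhb, and higher for 1 Pfkm probe.

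No single array carried all members. Pretreated replicate 1 held the highest level of 7 members and control replicate 2 the lowest level of 9, followed by doxorubicin replicate 3 with 6. The mean deviation of the 29 members from their own means was 0.18 on pretreated replicate 1, 0.12 on doxorubicin replicate 2 and -0.12 on both doxorubicin replicate 3 and control replicate 2. Of the members, 26 to 28 were detected per array.

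Other genes of glucose metabolism were taken from a list of 82 genes, of which 74 had a named probe and 55 were tested. limma called 0 of the 55 in each comparison, with 5 (2 higher, 3 lower), 5 (4 higher, 1 lower) and 7 (5 higher, 2 lower) at an unadjusted p under 0.05. These are 9.09%, 9.09% and 12.73% of the list, below the shares of all genes given above. Median differences were -0.04, 0.07 and 0.03. The compared groups did not overlap for 1, 6 and 5 of the 55 genes (1.82%, 10.91% and 9.09%). The shares of all genes were 2.85%, 6.98% and 13.9%.

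Pdp2, a phosphatase that switches pyruvate dehydrogenase back on, had the lowest p of them after doxorubicin. It was 10.61, 10.89, 10.62, 10.86 and 10.70 in controls, 10.03, 10.32, 10.41, 10.37 and 10.37 after doxorubicin and 10.45, 10.77 and 10.67 in pretreated hearts. Doxorubicin hearts lay below all controls and below all pretreated hearts (-0.44 ± 0.10, limma adjusted p = 0.119, and 0.34 ± 0.12 for pretreated minus doxorubicin, adjusted p = 0.37). With array weights, which count less consistent arrays less, the first difference was -0.47 ± 0.10 and was called (limma adjusted p = 0.0408). That fit called 1.55% of all genes. With the series matrix names the differences were -0.21 ± 0.15 after doxorubicin and 0.02 ± 0.17 for pretreated minus doxorubicin. Prkaa2, a catalytic subunit of AMP-activated kinase, was 8.48, 8.65, 8.47, 9.24 and 9.33 in controls, 8.53, 8.39, 8.05, 8.36 and 8.43 after doxorubicin and 8.64, 9.04 and 9.03 in pretreated hearts. The difference after doxorubicin was -0.48 ± 0.18 (limma adjusted p = 0.276). Pretreated hearts lay above doxorubicin hearts (0.55 ± 0.20, limma adjusted p = 0.384) and within the controls' range. With the series matrix names the differences were -0.12 ± 0.23 after doxorubicin and -0.13 ± 0.26 for pretreated minus doxorubicin, the latter of the other sign.

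In the glycogen group of that list, Ppp1r3b, which targets a phosphatase to glycogen, was 8.62, 8.40, 8.61, 8.72 and 8.57 in controls and 9.08, 8.74, 8.69, 9.54 and 9.10 after doxorubicin, with 9.50, 9.33 and 8.96 in pretreated hearts. The doxorubicin group overlapped the controls (0.45 ± 0.15, limma adjusted p = 0.242). Pretreated hearts lay above all controls (0.68 ± 0.18, limma adjusted p = 0.0757). It was called with the replicate number as a block (0.80 ± 0.15, limma adjusted p = 0.0387), where 2.02% of all genes were called. It was also called in a fit of these groups alone (0.68 ± 0.14, limma adjusted p = 0.0453), where 1.65% of all genes were called. Pygl, the liver phosphorylase, was 7.08 to 7.52 in controls, 7.43 to 7.91 after doxorubicin and 7.72 to 8.27 in pretreated hearts (0.60 ± 0.15 for pretreated minus control, limma adjusted p = 0.0675). Nhlrc1, a ubiquitin ligase of glycogen quality control, stood at -0.44 ± 0.16 in the same comparison (limma adjusted p = 0.17). By the series matrix names the differences from control were 0.18 ± 0.26 for Ppp1r3b, -0.0055 ± 0.23 for Pygl and 0.04 ± 0.20 for Nhlrc1.

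Gpd2, the mitochondrial part of the glycerol phosphate shuttle, was 7.21, 7.68, 7.70, 7.51 and 7.59 in controls, 6.36, 7.11, 7.12, 6.69 and 7.52 after doxorubicin and 6.60, 7.03 and 6.80 in pretreated hearts. Pretreated hearts lay below all controls (-0.73 ± 0.21, limma adjusted p = 0.1). Gpd2 was called in a fit of these groups alone (limma adjusted p = 0.0431), where 1.65% of all genes were called. The Gpd2 difference after doxorubicin was -0.58 ± 0.19 (limma adjusted p = 0.214). By the series matrix names Gpd2 stood at 0.03 ± 0.30 for pretreated minus control and -0.26 ± 0.26 after doxorubicin. Taldo1 of the pentose phosphate pathway stood at 0.26 ± 0.10 and the coactivator gene Ppargc1a, a regulator of mitochondrial genes, at 0.80 ± 0.32 in pretreated minus doxorubicin hearts (limma adjusted p = 0.384 and 0.394), and at 0.19 ± 0.11 and -0.40 ± 0.38 under the series matrix names.

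**Figure D5:**
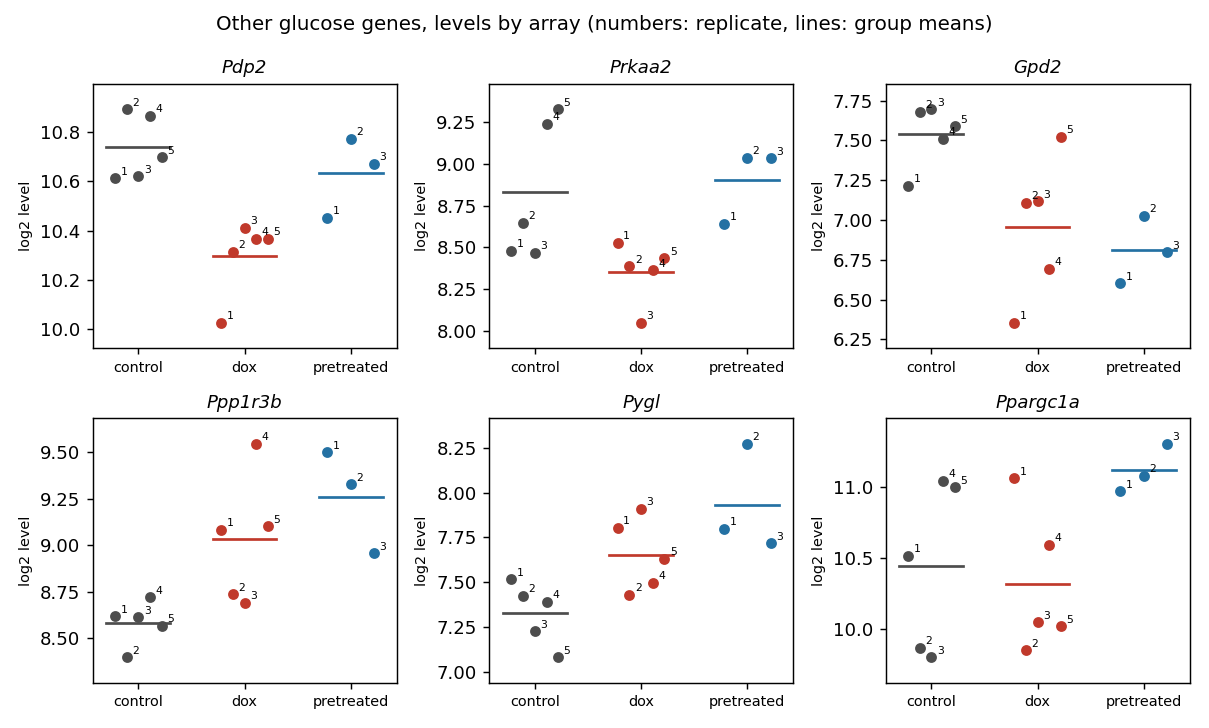
Log2 level of 6 other glucose genes on each array, with the replicate number beside each point and group means as lines; the vertical axes differ between panels and do not start at 0. The 5 doxorubicin hearts lie below the controls for Pdp2, and the 3 pretreated hearts lie above the controls for Ppp1r3b and Pygl.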

How the data were processed

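Heart RNA of 13 mice was labelled as biotin cRNA and hybridised to Illumina mouse arrays, per the labels. The deposited non-normalized table holds 1 linear signal intensity per probe and array, each followed by its detection p-value per the file headers. The deposited series matrix holds further processed intensity values, background-subtracted and quantile-normalized as judged from the values (column medians 6.8 to 6.9). The sources used here do not name the software of either table. By Spearman correlation each series matrix column matched 1 array (at least 0.999994, next best at most 0.903779). The tables named the same array for 5 samples and another for 8, and 7 arrays keep 1 group in both. The sources do not settle which is right. Alternatives alone used the series matrix, after values below 1 were raised to 1.

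From the non-normalized table, limma 3.58.1 in R 4.3.3 was run with neqc (normexp by detection p, quantile normalization, offset 16, log2). Of 45281 probes 18693 had a detection p under 0.05 on at least 3 arrays, and 34885 probes had 1 symbol, 18 several and 10378 were unnamed here. The passing probe with the highest mean stood for each of 10410 genes. The 3 groups were fitted together with lmFit and eBayes (two-sided, no covariates), and p-values were adjusted by Benjamini-Hochberg over all genes. The scripts were tested on simulated data. Correlations between arrays were 0.9697 to 0.9931, and 0 pairs were identical. The number of arrays limits the precision, and p-values measure only the spread between these samples, which may be technical. Members and lists were chosen with earlier results of these data known. The text names the 6 members and 4 other glucose genes with the smallest p in each comparison, plus 6 measured members fixed by role, and others by their values in 1 sentence each. Alternatives covered the table and its names, scaling, offset, detection filter, probe choice, array weights, replicate block, samples in the fit and each array left out.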

Additional observations from a re-analysis of the deposited data

Results flagged for a closer look

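In 2 members 1 array of a group of 5 stood apart from the other 4 by more than Dixon's critical value of 0.71. Of 58 member and group sets tested, 3 passed it, and chance flags about 1 in 20. Phka1 was 5.73 on doxorubicin replicate 5 and 6.89 to 7.12 on the other doxorubicin arrays (ratio 0.836). That replicate was the only doxorubicin array in the set that stood apart on the first principal component. Phka1 was low on every array of that set (5.49 to 5.94). Pfkfb3 was 4.84 on control replicate 1 and 5.22 to 5.30 on the other controls (ratio 0.832). It was 5.64 on doxorubicin replicate 5 and 4.83 to 5.02 on the other doxorubicin arrays (ratio 0.763), signals near the detection limit.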

How the results depend on the processing

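For doxorubicin against control the count of members called was 0 to 1 over the fits that left out 1 array, the 1 being Slc2a4 without doxorubicin replicate 2 (3.45% of members, against 3.19% of all genes in that fit), and 0 in the other alternatives. In the other comparisons it was 0 in all 26 alternatives. Of 48 differences of 16 named members, 1 passed in any alternative; 27 changed sign in at least 1, which came to 94 of 1245 values, all uncalled.

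The counts over all genes moved more, and causes were not tested. Under the series matrix names limma called 0 genes in each comparison on either table's values, with 164, 324 and 358 at an unadjusted p under 0.05 on the non-normalized values. On the 7 arrays of 1 group in both tables the counts were 0, 4 and 6 (732 at an unadjusted p in the first), where fewer arrays entered. After doxorubicin the 25 calls became 45 with an offset of 50, 38 with probes detected on all arrays, 161 with array weights and 0 on the arrays not above 10 on component 1 (1189 at an unadjusted p), an alternative chosen after seeing the data, as was the block of that array set. In pretreated against control the 128 calls became 211 with an offset of 50, 280 with array weights, 25 with median scaling and 9 on the arrays not above 10. Median scaling turned the split of higher to lower calls from 17 and 8 to 34 and 1 after doxorubicin, from 3 and 6 to 1 and 5 between treated groups and from 73 and 55 to 17 and 8 against control.

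With the replicate number as a block the counts were 4, 64 and 210. The residual correlations of the 11 same-numbered pairs ran from -0.245 to 0.386, with 4 over 0.1. The labels do not say whether same-numbered samples are related, and this was not tested. Leaving out 1 array gave 3 to 332 calls after doxorubicin, 6 to 11 between treated groups and 25 to 294 against control. The 332 and 294 came without doxorubicin replicate 2. After doxorubicin the counts were 13, 5, 12 and 7 without control replicates 2 to 5, 3, 8 and 6 without doxorubicin replicates 1, 3 and 4, and 42 without pretreated replicate 2. Against control they were 81, 26, 25 and 67 without control replicates 1 to 4, 70 and 77 without doxorubicin replicates 1 and 4, and 37, 28 and 58 without pretreated replicates 1 to 3. Dim signals limit Pfkfb3, Gys1 and Gbe1, which were not detected on every array.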
